A study of Rattus norvegicus with 4 samples.

Results

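Long non-coding RNA (lncRNA) transcripts whose level was far below their highest in exactly 1 of 4 libraries of cultured rat heart muscle cells are described here. A transcript was taken when its mean count over the 4 libraries was 50 or more (0 where a library did not list it) and when its FPKM (a read density scaled by transcript length and library total) lay under 12.5% of its highest FPKM in exactly 1 library. That library had to be one of 3 (high glucose at 24 h, or normal glucose at either time). Another 41 transcripts that were low only in high glucose at 48 h are not included, and neither is 1 transcript in a region of chromosome 13 that the rule leaves out. Of 17934 listed transcripts, 2872 had the required mean count and 58 fulfilled the rule. The same FPKM values chose these 58 transcripts and give their levels below, so their low values are a description and are not tested.

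The heart muscle cells came from Sprague-Dawley rats 1 to 2 days after birth and were grown as primary cultures in M199 medium, in all groups with taurine and creatine at 5 mM each and carnitine at 2 mM. High glucose (HG) stands for 33 mmol/l glucose, and normal glucose (NG) for 5 mmol/l glucose with 28 mmol/l mannitol to equal the osmolality. The 4 groups had 1 library each, from total RNA prepared with strand information. They are called HG48 and NG48 at 48 h, and HG24 and NG24 at 24 h. The study set up high glucose as its oxidative stress and apoptosis model. The labels name no separate cultures or animals behind the libraries. No p-value is given, because no group has a second library and the spread between cultures is unknown. The tables hold only lncRNA transcripts, so the cell type could not be checked against its marker genes.

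LncRNAs are transcribed, and often spliced, like messenger RNAs but carry no long open reading frame. Some act in the nucleus on transcription or chromatin and others in the cytoplasm on RNA stability or translation, and for most catalogued ones no function is known. A locus often gives several overlapping isoforms, whose reads have to be divided between them by the quantification program. The identifiers are those of the NONCODE catalogue (NONRATT) or of transcripts assembled from reads (MSTRG). None of the 58 identifiers was paired with a gene name in the tables or matched in the RefSeq gene table, so each transcript is named by its identifier and its span in rn6, with no role. A transcript as long as its span is called a single block and a shorter one spliced. Transcripts joined by a chain of overlapping spans, with strand not used, form a locus. No sequence of that build was used here. How their spans lie against exons and introns of coding genes was not analysed here.

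The lncRNA counts summed to between 846946 and 1075428 per library, within library totals of 11877895 to 15654067 behind the FPKM values. 1 read corresponded to 0.0639 to 0.0842 CPM (counts scaled to these totals), and a count of 3, used as the floor for a transcript with no read, to 0.192 to 0.253 CPM. Folds between 2 counts above 0 are given with a 95% Clopper-Pearson interval, made from the 2 counts given their sum, which covers counting error only, since amplified reads carry no molecular identifiers and several may stem from 1 molecule. In such bulk libraries, fewer cells of a type and less RNA per cell cannot be told apart.

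Of the 58 transcripts, 21 were low in HG24, 22 in NG48 and 15 in NG24, which is 0.731%, 0.766% and 0.522% of the 2872 well-covered transcripts. Together they are 2.02% of that set. The level in the low library was at most 12.1% of the highest, with a median of 4.74%, and it was under 6.25% for 34 transcripts and under 1% for 7. In the low library they had 0 to 197 reads (median 9), against 68 to 4307 reads (median 202.5) in their highest library. Counting error alone left the upper limit of the low level below 12.5% of the highest for 37 of the 58. For the other 21 the interval reached past the limit that chose them. 4 transcripts were not listed at all in their low library and 54 were listed in all 4.

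**Figure D1:**
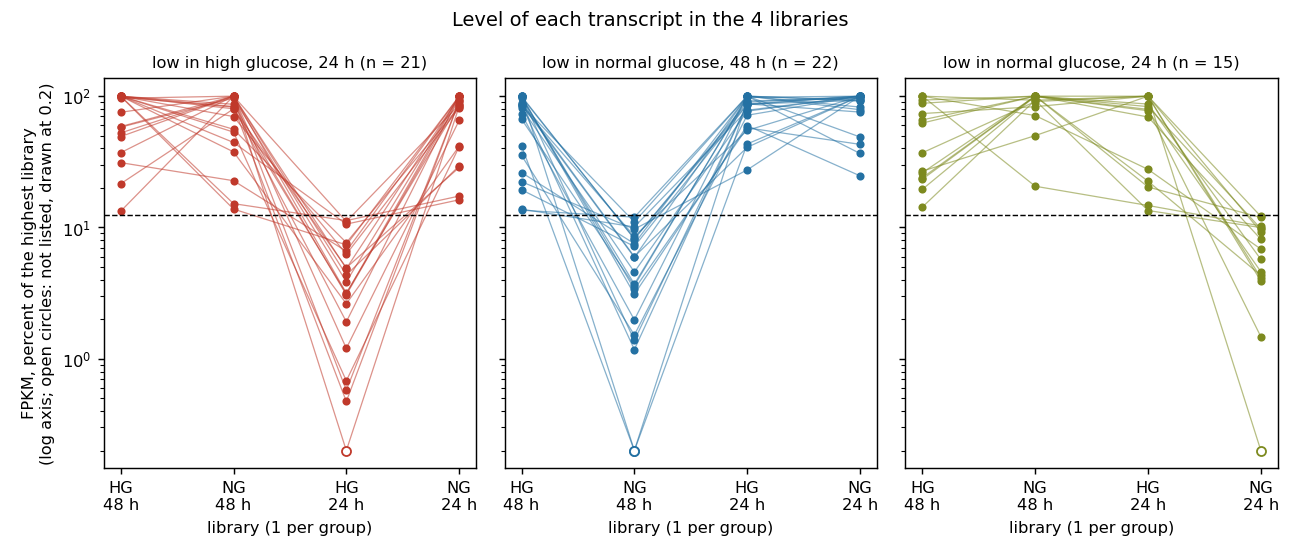
FPKM of each of the 58 transcripts as a percent of its own highest library (log axis) in the 4 libraries, HG for high and NG for normal glucose, in 3 panels by the library that is low. Lines join the values of 1 transcript, the dashed line marks 12.5%, and open circles mark the 4 transcripts not listed in a library, drawn at 0.2. The other 3 libraries lie close together for some transcripts and up to 7.52-fold apart for others.

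The 21 transcripts low in HG24 include the best covered of all 58. NONRATT004188.2 (chr10:31237556-31240582, 3027 nt, single block) had 35.5 FPKM in HG48, 95.8 in NG48, 4.16 in HG24 and 28.2 in NG24. It was 6.78-fold lower in HG24 than in NG24 (interval 5.81 to 7.93), and even its low library held 197 reads. NONRATT005600.2 (chr10:56527323-56531443, 733 nt, spliced) had 119 FPKM in HG48, 203 in NG48, 2.44 in HG24 and 133 in NG24. The 3 other libraries of this transcript lay within 1.70-fold of each other, while HG24 stood at 1.20% of the highest. It was 48.9-fold higher in HG48 than in HG24 (33.7 to 73.9).

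A further group in this library was nearly at the floor, with 4 of the 21 at 3 reads or fewer. NONRATT006444.2 (chr11:31813129-31813576, 448 nt, single block) had 60.3 FPKM in HG48, 50.2 in NG48, 0.285 in HG24 and 55.1 in NG24. Its low value rested on 2 reads against 293 in NG24, 193-fold lower with an interval from 53.0 to 1602. The levels in the other 3 libraries differed by at most 1.20-fold, so HG24 stood alone. NONRATT003336.2 (chr1:213746990-213751373, 536 nt, spliced) had 311 reads in HG48, 660 in NG48, 4 in HG24 and 483 in NG24. It was 159-fold lower in HG24 than in NG24 (61.8 to 586). NONRATT001568.2 (chr1:228727070-228729054, 1985 nt, single block) had 401, 223, 3 and 138 reads in HG48, NG48, HG24 and NG24. Here the 3 other libraries were less even, 2.43-fold apart.

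NONRATT030658.2 (chrX:105506858-105507636, 779 nt, single block) kept 12.6 FPKM in HG48, 10.6 in NG48 and 12.9 in NG24, and had 0.246 FPKM, from 3 reads, in HG24. NONRATT020675.2 (chr4:118792619-118795766, 3148 nt, single block) had the most even remainder of this group, at 1.61 FPKM in HG48, 1.67 in NG48, 0.0812 in HG24 and 1.66 in NG24. It was 20.4-fold lower in HG24 than in NG24, with an interval from 7.59 to 77.3 that shows how little 4 reads fix the size. NONRATT016697.2 (chr2:199867966-199889207, 347 nt, spliced) was 30.8-fold lower in the same comparison (12.8 to 96.7), with its other libraries at 26.0 to 30.0 FPKM.

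Not every transcript in this group was set apart by HG24 alone. NONRATT028952.2 (chr8:115392590-115396246, 3657 nt, single block) had 6.38 FPKM in HG48, 0.884 in NG48, 0.472 in HG24 and 6.4 in NG24. The 2 libraries at about 6.4 FPKM shared neither medium nor time, and NG48 lay only just above the limit. NONRATT004661.2 (chr10:70310274-70312073, 1800 nt, single block) had 1.64 FPKM in HG48, 12.3 in NG48, 0.390 in HG24 and 10.8 in NG24. Both high glucose libraries of NONRATT004661.2 were thus below both normal glucose libraries, and the one at 24 h was 27.6-fold below normal glucose at that time (15.1 to 56.0). For NONRATT030883.2 (chrX:15471029-15472288, 1260 nt) the rule caught a transcript with 1 high library, with 145 reads in HG48, 23 in NG48, 18 in HG24 and 21 in NG24. Its 24 h libraries did not differ beyond counting error, at a ratio of high over normal glucose of 0.650 (0.327 to 1.28). NONRATT000543.2 (chr1:85437986-85453098, 906 nt, spliced) had 24.6, 10.9, 2.61 and 3.996 FPKM in HG48, NG48, HG24 and NG24, with both 48 h libraries above both 24 h libraries. The other 6 of this group (NONRATT021642.2, NONRATT010756.2, NONRATT017297.2, NONRATT005357.2, NONRATT024941.2 and NONRATT014222.2) had 4 to 37 reads in HG24. NONRATT017297.2 (chr20:13123567-13128828, 2174 nt, spliced) had 123, 214, 9 and 177 reads in HG48, NG48, HG24 and NG24.

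Of all 21, 16 were lower by 8-fold or more in HG24 than in NG24, where 1.39% of the well-covered transcripts were, and 17 higher by 8-fold or more in HG48 than in HG24, against 1.71%. The rule used both comparisons.

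The 22 transcripts low in NG48 held many with an even level in the other libraries. NONRATT009320.2 (chr14:36750784-36755360, 3702 nt, spliced) had 9.23 FPKM in HG48, 0.127 in NG48, 8.06 in HG24 and 6.98 in NG24. It was 72.5-fold higher in HG48 than in NG48 (34.9 to 181), and 54.9-fold lower in NG48 than in NG24 (26.3 to 138). Only 7 reads stood in the low library, against 307 to 486 in the others. NONRATT020231.2 (chr4:33940220-33941842, 1623 nt, single block) had 7.62 FPKM in HG48, 0.290 in NG48, 7.68 in HG24 and 7.83 in NG24. Its 3 other libraries lay within 1.03-fold, the most even remainder of the 58 transcripts.

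NONRATT000110.2 (chr1:29199711-29201257, 1547 nt, single block) had 153 reads in HG48, 9 in NG48, 159 in HG24 and 157 in NG24. It was 17.8-fold higher in HG48 than in NG48 (9.11 to 39.6). NONRATT000390.2 (chr1:78811781-78812484, 704 nt, single block) had 113, 12, 81 and 112 reads in HG48, NG48, HG24 and NG24, 9.83-fold higher in HG48 than in NG48 (5.41 to 19.6). NONRATT005306.2 (chr10:15349613-15358933, 2608 nt, spliced) had 9.0, 0.749, 8.18 and 9.10 FPKM in the same order of libraries. In all of these the normal glucose library at 48 h was the only one out of line.

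NONRATT019237.2 and NONRATT025362.2 were not listed in NG48. NONRATT019237.2 (chr3:15362891-15379275, 693 nt, spliced) had 88 reads in HG48, 0 in NG48, 89 in HG24 and 71 in NG24. Against the floor of 3 counts in NG48 it was 30.6-fold higher in HG48 than in NG48, with a lower limit of 24.4-fold. NONRATT025362.2 (chr6:135717188-135720258, 3012 nt, spliced) had 104, 0, 118 and 207 reads in that order. Against the same floor it was 36.2-fold higher in HG48 than in NG48, with a lower limit of 28.9-fold. NONRATT012600.2 (chr17:70712376-70713734, 1359 nt, single block) had 1 read in NG48 against 68 to 78 elsewhere. The fold of HG48 over NG48 was 73.1, with an interval of 12.7 to 2928 that shows how little 1 read fixes the size. NONRATT019836.2 (chr3:150062897-150063924, 1028 nt, single block) was low at 3 reads in NG48 and stood at 4.58 FPKM in HG48, 9.26 in HG24 and 12.9 in NG24.

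Other members of this group separated the times rather than a library. NONRATT001149.2 (chr1:190555149-190560594, 793 nt, spliced) had 7.0 FPKM in HG48, 6.20 in NG48, 51.7 in HG24 and 48.3 in NG24. Both 48 h libraries were far below both 24 h libraries, and HG48 exceeded NG48 by 1.13-fold, with an interval from 0.812 to 1.58 that holds 1. NONRATT023036.2 (chr5:19892078-19894321, 2054 nt, spliced) had 17, 13, 106 and 103 reads in HG48, NG48, HG24 and NG24, the same form. NONRATT009420.2 (chr14:71454496-71462646, 2408 nt, spliced) had 3.09, 1.15, 13.7 and 15.98 FPKM in that order, where the 48 h libraries differed 2.70-fold (1.87 to 3.97). NONRATT025796.2 (chr7:54233227-54237880, 2301 nt, spliced), with the highest mean count of this group, had 6.05, 2.63, 7.44 and 27.1 FPKM in that order and so was set apart by 1 high library as much as by a low one. NONRATT005089.2 (chr10:105564510-105565224, 715 nt, single block) was uneven in its other libraries, with 39.5, 1.22, 23.6 and 9.77 FPKM in HG48, NG48, HG24 and NG24. The others of this group without a further account (NONRATT025255.2, NONRATT009557.2, NONRATT025201.2 and NONRATT010720.2) were single blocks with 4 to 8 reads in NG48. Of these, NONRATT010720.2 (chr15:2685505-2686639) was the most even elsewhere, with 4.34, 0.297, 5.01 and 4.6 FPKM in HG48, NG48, HG24 and NG24.

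Of the 22, 16 were higher by 8-fold or more in HG48 than in NG48, where 1.5% of the well-covered transcripts were, and 18 were lower by 8-fold or more in NG48 than in NG24, against 1.53%. Both comparisons entered the rule.

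The 15 transcripts low in NG24 were fewer and less even. NONRATT028730.2 (chr8:78909112-78949169, 2620 nt, spliced) had the deepest low value of those listed there, with 4.08 FPKM in HG48, 4.37 in NG48, 3.46 in HG24 and 0.0643 in NG24. It had 142 reads in HG24 and 2 in NG24, 53.9-fold higher in HG24 with an interval from 14.6 to 449. NONRATT002333.2 (chr1:78843078-78844692, 1615 nt, single block) had 34.2, 38.6, 46.4 and 5.63 FPKM in HG48, NG48, HG24 and NG24, and was 8.23-fold higher in HG24 than in NG24 (6.76 to 10.1). MSTRG.10360.3 (chr19:33551733-33641520, 2629 nt, spliced) had 103, 163, 133 and 6 reads in that order, 16.8-fold higher in HG24 than in NG24 (7.53 to 46.7). NONRATT014565.2 (chr19:25783686-25784371, 686 nt, single block) had 11.0, 17.6, 14.6 and 1.72 FPKM in that order. For these 4 transcripts the other libraries lay within 2-fold, and they are the only 4 of the 15 for which that holds.

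NONRATT018275.2 (chr3:62486953-62491356, 4317 nt, spliced) was by far the best covered of the 15, with 9.95 FPKM in HG48, 42.7 in NG48, 37.2 in HG24 and 2.44 in NG24. It was 15.2-fold higher in HG24 than in NG24 (12.7 to 18.4), yet 0.233 times as high in HG48 as in NG48 (0.213 to 0.254). NONRATT020646.2 (chr4:117371544-117471445, 8497 nt, spliced), the longest of the 58, had the same form with 0.240, 1.56, 1.68 and 0.0694 FPKM in HG48, NG48, HG24 and NG24. NONRATT026138.2 (chr7:122687527-122688791, 1265 nt, single block) had it too, with 22, 96, 101 and 3 reads in that order. In these 3 transcripts, as in NONRATT027637.2 with 23, 123, 90 and 8 reads, the second lowest library was HG48, which shares neither medium nor time with the low one.

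NONRATT002555.2 (chr1:92002927-92004691, 1765 nt, single block) had 7.81, 8.85, 1.99 and 0.382 FPKM in HG48, NG48, HG24 and NG24. Both 24 h libraries were below both 48 h libraries, as in NONRATT015639.2 (chr2:205525187-205534214, 365 nt, spliced), with 20.8, 19.4, 2.80 and 2.08 FPKM. The 24 h libraries of NONRATT015639.2 had a ratio of high over normal glucose of 1.35 (0.561 to 3.46), which counting error does not separate from 1. NONRATT001841.2 (chr1:267396827-267415761, 4260 nt, spliced) had 618 reads in HG48 against 133 in NG48, 100 in HG24 and 53 in NG24, again 1 high library. NONRATT008811.2 (chr13:70258915-70261278, 2364 nt, single block) stood out by NG48 alone, with 84, 336, 72 and 32 reads in HG48, NG48, HG24 and NG24. NONRATT003235.2 (chr1:199624037-199624784, 433 nt, spliced) was highest in HG24 instead, with 73, 142, 299 and 21 reads in that order, and NONRATT018037.2 (chr3:11270655-11271876, 851 nt, spliced) was lower in both 24 h libraries, with 105, 78, 32 and 6 reads.

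Of the 15, 10 were higher by 8-fold or more in HG24 than in NG24, where 1.29% of the well-covered transcripts were, and 12 higher by 8-fold or more in NG48 than in NG24, against 1.64%. The rule used both of these as well.

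The limit of 12.5% cut through a continuous range of values. Just inside it were NONRATT002333.2 at 12.1%, NONRATT001149.2 at 11.98% and NONRATT008811.2 at 11.9%, and for HG24 NONRATT030883.2 at 11.3% and NONRATT010756.2 at 11.1%. Just outside were NONRATT000051.2, lowest in NG24 at 12.6% of its highest, NONRATT008295.2 and NONRATT025797.2, lowest in NG48 at 12.8% and 13.1%, and NONRATT030108.2 and NONRATT026294.2, lowest in HG24 at 13.7% and 14.6%. The next ones out were NONRATT005888.2 at 14.6% in NG48, NONRATT003560.2 at 16.1% in HG24, and NONRATT028685.2 and NONRATT016618.2 at 17.3% and 17.5% in NG24.

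The libraries other than the low one often differed among themselves. The highest and lowest of the 3 were over 2-fold apart for 11 of the 21 transcripts low in HG24, 11 of the 22 low in NG48 and 11 of the 15 low in NG24. Among well-covered transcripts whose 3 libraries lay within 8-fold, as the rule requires, these percentages were 12.4%, 12.3% and 12.3%. A wide spread raises the highest value against which a low one is judged, so the rule itself favours such transcripts and nothing is read from the difference. 25 of the 58 had 3 libraries within 2-fold and 19 had them over 4-fold apart. The second lowest library was HG48 in 28 of the 58, HG24 in 12, and NG48 and NG24 in 9 each. The rule bars HG48 from being the low library, so it could be second lowest in all 58 and the others could not. Within the 21 low in HG24 it was HG48 in 8, NG48 in 9 and NG24 in 4. For the 22 low in NG48 it was HG48 in 11, HG24 in 6 and NG24 in 5, and for the 15 low in NG24 HG48 in 9 and HG24 in 6. In 8 of the 54 listed in all 4 libraries the second lowest lay within 2-fold of the lowest.

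**Figure D2:**
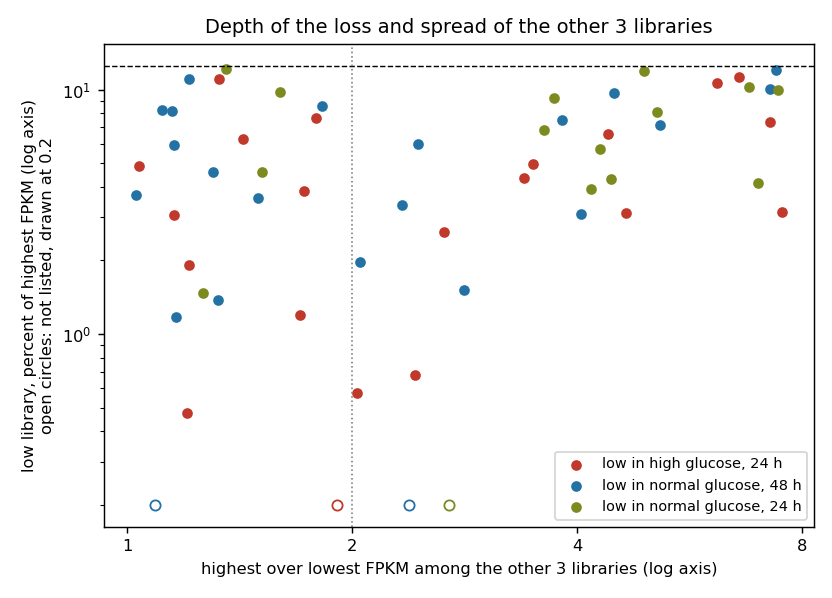
Level in the low library as a percent of the highest FPKM (log axis) against the highest over lowest FPKM among the other 3 libraries (log axis), 1 point per transcript, colour by low library. The dashed line marks 12.5% and the dotted line 2-fold. Open circles are the 4 transcripts not listed in the low library, drawn at 0.2. The 25 transcripts left of the dotted line have a single library out of line.

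Ratios that do not contain the low library went both ways. For the transcripts low in HG24, 4 of 21 were higher by 2-fold or more and 4 lower by 2-fold or more in HG48 than in NG48, where 4.14% and 7.69% of the well-covered transcripts were. For those low in NG48, 3 of 22 were higher by 2-fold or more and 3 lower by 2-fold or more in HG24 than in NG24, against 3.13% and 3.59%. For those low in NG24, 1 of 15 was higher by 2-fold or more and 6 lower by 2-fold or more in HG48 than in NG48. The time ratios that leave out the low library were likewise split, with 3 of 21 higher by 2-fold or more and 2 lower at 48 h than at 24 h in normal glucose for the first group, against 3.1% and 3.86%. In high glucose, 1 of 22 was higher by 2-fold or more and 5 lower at 48 h for the second, and 4 of 15 higher and 6 lower for the last, against 4.11% and 7.49%. The limit on the 3 libraries that share these ratios was part of the rule, so these counts are a description.

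Overlapping transcripts were not chosen by the rule, and their levels are given beside those of the low transcript. 35 of the 58 overlapped no other listed transcript, and no 2 of the 58 shared a locus. Of the 23 with an overlap of at least 1 base, 16 had at least 1 overlapping partner with a mean count of 10 or more, 38 partners in all. In the library where the chosen transcript was low, 9 of the 38 partners were higher by 2-fold or more than their own mean over the other 3 libraries, 24 were within 2-fold and 5 were lower by 2-fold or more. Among all 2520 overlapping transcripts of that mean count, 4.29% were higher by 2-fold or more and 6.47% lower by 2-fold or more in HG24, 4.52% and 7.18% in NG48, and 4.4% and 7.54% in NG24. The low library was the highest of the 4 for 21 of the 38 partners, 7 of 13 for HG24, 8 of 16 for NG48 and 6 of 9 for NG24. For all overlapping transcripts these libraries were the highest in 23.3%, 28.3% and 28.1%. No margin over the next library was required in either count. Partners of 1 transcript share its locus, and reads of overlapping transcripts may have been divided between them. These 38 are therefore independent neither of each other nor of the low values that chose the transcripts.

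**Figure D3:**
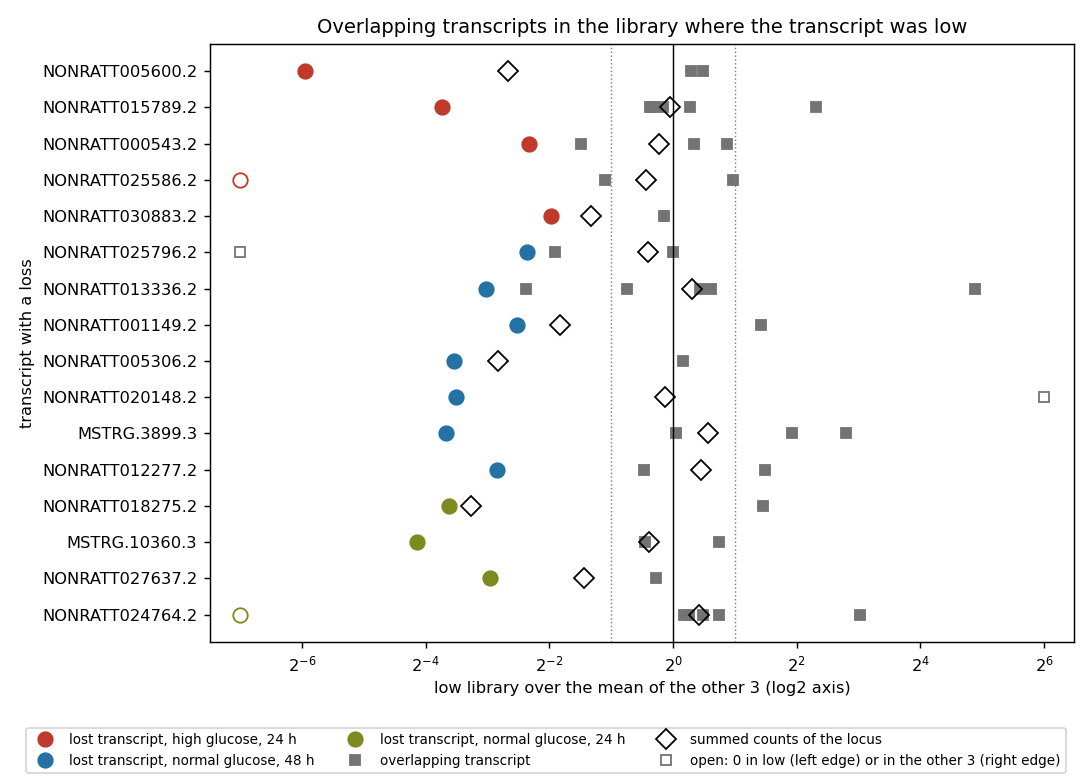
Level in the low library over the mean of the other 3 libraries (log2 axis) for the 16 transcripts with an overlapping partner of mean count 10 or more (coloured circles, from FPKM), each partner (grey squares, from FPKM) and the summed counts of all listed transcripts of the locus scaled by library total (black diamonds). Open symbols at the edges mark a level of 0 in the low library (left) or in all 3 others (right). 9 of the 38 partners lie beyond 2-fold on the right and 5 beyond 2-fold on the left.

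At several loci a partner was highest in exactly the library in which the chosen transcript was low. The loci in the following 3 paragraphs were picked from the 16 after their values were seen. On chromosome 18, NONRATT013336.2 (28397387 to 28415107, spliced, 775 nt) had 35.2 FPKM in HG48, 4.52 in NG48, 41.0 in HG24 and 33.9 in NG24. Its partner NONRATT013334.2 (28397343 to 28414927, spliced, 605 nt) had 0.349, 37.6, 1.27 and 2.23 FPKM in the same order, the reverse form. A second partner, NONRATT013337.2 (28397398 to 28415251, spliced, 836 nt), had 57.5, 72.3, 22.4 and 61.5 FPKM. The 6 listed transcripts of this locus together had 81.3 CPM in HG48, 90.8 in NG48, 57.2 in HG24 and 82.0 in NG24, so the locus as a whole was not low in NG48. NONRATT013336.2 took 33.5% of the locus counts in HG48 (95% Wilson interval 30.9 to 36.3), 3.85% in NG48 (2.95 to 5.02), 55.6% in HG24 (52.3 to 58.8) and 32.03% in NG24 (29.2 to 35.0).

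On chromosome 4, NONRATT020148.2 (8263930 to 8265580, a single block of 1651 nt) had 164 reads in HG48, 14 in NG48, 157 in HG24 and 127 in NG24. Its partner NONRATT020147.2 (8256681 to 8265244, spliced, 611 nt) was listed only in NG48, with 66 reads. The locus sum was nearly level at 20.8, 19.2, 21.3 and 21.1 CPM in HG48, NG48, HG24 and NG24. At the assembled locus on chromosome 10, MSTRG.3899.3 (81829824 to 81839560, spliced, 2155 nt) had 85, 6, 43 and 80 reads in that order, while MSTRG.3899.1 (81828685 to 81839587, 3318 nt) had 2, 110, 48 and 0 and MSTRG.3899.2 (81829041 to 81839560, 2248 nt) had 28, 55, 7 and 6. The locus sum, 9.84, 13.7, 8.75 and 9.26 CPM in that order, was highest in the library where MSTRG.3899.3 was low. On chromosome 17, NONRATT012277.2 (9685876 to 9692162, spliced, 1382 nt) had 30, 9, 126 and 35 reads and its partner NONRATT012276.2 (9685317 to 9693671, 2197 nt) 32, 177, 79 and 65 in the same order.

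For NG24 the clearest such pair lay on chromosome 6, where NONRATT024764.2 (2880706 to 2886462, spliced, 815 nt) had 32 reads in HG48, 82 in NG48, 95 in HG24 and 0 in NG24. Its partner NONRATT024763.2 (2880652 to 2886435, 854 nt) had 7, 19, 41 and 142 reads in that order, and a further partner, NONRATT024762.2, was nearly level at 9.44, 11.2, 10.9 and 11.9 FPKM. NONRATT024764.2 was 24.0-fold higher in HG24 than in NG24 against the floor of 3 counts, with a lower 95% limit of 19.2-fold from counting error. Its 0 of 889 locus counts in NG24 had a 95% Wilson upper limit of 0.430%, against a share of 10.0% in HG24. For HG24, NONRATT025586.2 (chr7:12535059-12536794, 655 nt, spliced) had 106, 211, 0 and 141 reads in HG48, NG48, HG24 and NG24. Against the floor it was 61.9-fold lower in HG24 than in NG24, with a lower limit of 49.7-fold. Its partner NONRATT025585.2 (12534005 to 12536789, 700 nt) was highest there, with 100, 70, 217 and 113 reads in that order, which is within 2-fold of its mean over the other 3 libraries. Another partner, NONRATT025587.2, was more than 2-fold lower there, with 37, 9, 9 and 6 reads. At the NONRATT000543.2 locus the partner NONRATT000540.2 was highest in HG24 but also within 2-fold, with 53, 126, 203 and 107 reads in HG48, NG48, HG24 and NG24, while NONRATT000541.2 was more than 2-fold lower there, with 28, 32, 10 and 15 reads. At the MSTRG.10360.3 locus the partner MSTRG.10360.2 had 195, 70, 49 and 143 reads in that order, high in both libraries where MSTRG.10360.3 took its smaller shares, 24.2% in HG48 and 3.05% in NG24. At the locus of NONRATT015789.2 (chr2:240626216-240654891, 1135 nt, spliced), with 9 other listed transcripts, the chosen transcript took 1.08% of the locus counts in HG24 (0.775 to 1.49) and 13.3% in NG24 (12.1 to 14.7). The locus sum was 208 CPM in HG24 and 218 CPM in NG24. Its partner NONRATT015791.2 had 29, 14, 79 and 1 reads in HG48, NG48, HG24 and NG24 and was the 1 partner of mean count 10 or more that was higher by 2-fold or more in HG24, at 4.94 times its mean over the other 3 libraries in FPKM.

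**Figure D4:**
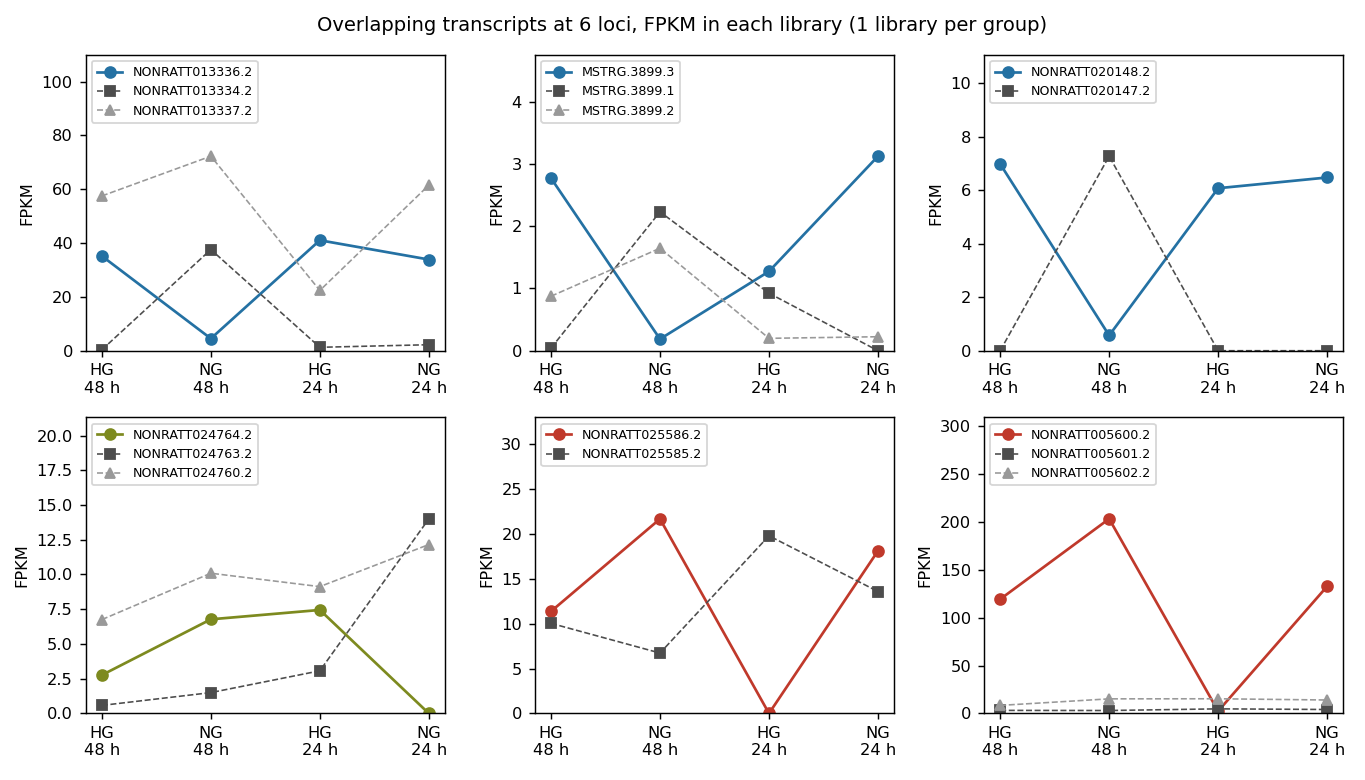
FPKM (linear axes from 0) of the chosen transcript (coloured circles) and 1 or 2 overlapping transcripts (grey squares and triangles) at 6 loci, in the 4 libraries, HG for high and NG for normal glucose. The 6 loci and the partners drawn were picked from the 16 after their values were seen. NONRATT027637.2 and NONRATT030883.2, which are not drawn, had no partner that was highest in their low library. At each of the 6 drawn loci a partner is highest in the library where the chosen transcript is lowest. In the last, at NONRATT005600.2, the partners stay between 3.02 and 15.3 FPKM in all libraries.

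At other loci the sum, which includes the chosen transcript, was low together with it. At the NONRATT005600.2 locus the partners NONRATT005601.2 (62, 62, 103 and 67 reads in HG48, NG48, HG24 and NG24) and NONRATT005602.2 (88, 167, 177 and 123 reads) were highest in HG24, with no more than 177 reads. For NONRATT005602.2 this was nearly a tie, at 15.3 FPKM in HG24 and 15.2 in NG48. The locus sum was 19.7 CPM in HG24 and 113 CPM in NG24. The share of NONRATT005600.2 in its locus was 9.09% in HG24 (6.36 to 12.8) and 85.9% in NG24 (83.9 to 87.6). NONRATT018275.2 made up 98.2% of its locus in HG24 and 77.6% in NG24, so the locus sum moved with it, at 163 and 13.6 CPM. Without NONRATT018275.2, the rest of its locus in NG24 was at 1.88 times its mean over the other 3 libraries. At the NONRATT025796.2 locus on chromosome 7 the sum stayed within 2-fold in NG48, and a partner was also lowest there, NONRATT025797.2, with 186, 84, 678 and 90 reads in HG48, NG48, HG24 and NG24. The partner with most reads there, NONRATT025794.2, was level at 91.0, 101, 91.8 and 120 FPKM in the same order.

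Over the 23 loci with more than 1 listed transcript, the locus sum in the low library was within 2-fold of its mean over the other 3 for 10 and lower by 2-fold or more for 13, and at none was it higher by 2-fold or more. In 8 of the 23 the sum of counts, scaled by library total, was under 12.5% of its highest. These sums include the chosen transcript, so a low sum does not show that the rest of the locus was low. Without it, the rest at the 13 was lower by 2-fold or more only for NONRATT003336.2 (0.329 times), NONRATT028730.2 (0.230) and NONRATT001841.2 (0). That rest had a mean count of 9 or less in each. The highest finite value among the 13 was 2.67 times, for NONRATT001149.2. The other 35 transcripts have no listed partner. Reads shared with a protein-coding gene, or with a copy elsewhere in the genome, were not analysed here.

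Neighbours that did not overlap are given beside the background. Within 50 kb of 22 of the 58 lay 39 well-covered transcripts, and in the library where the chosen transcript was low 35 of these were within 2-fold of their mean over the other 3, 2 were higher by 2-fold or more and 2 lower by 2-fold or more. In NG48, 4.46% of all well-covered transcripts were lower by 2-fold or more and 2.16% higher by 2-fold or more, in HG24 4.04% and 2.47%, and in NG24 3.97% and 2.4%. The nearest of the exceptions was NONRATT020232.2 (chr4:33942100-33943217), 257 bases from NONRATT020231.2, with 101 reads in HG48, 16 in NG48, 82 in HG24 and 50 in NG24. Both were lowest in NG48. The other lower one, NONRATT006455.2, lay 19756 bases from NONRATT006444.2 with 89 reads in HG48, 45 in NG48, 33 in HG24 and 53 in NG24. NONRATT013324.2 (chr18:28361287-28380933), 16453 bases from NONRATT013336.2, had 0, 334, 41 and 1 reads in that order, high in NG48 where NONRATT013336.2 was low. NONRATT000390.2 and NONRATT002333.2 on chromosome 1 lay 30593 bases apart and were low in different libraries, NG48 and NG24. NONRATT000390.2 is the other higher neighbour, at 2.03 times its mean over the other 3 libraries in NG24, a mean that includes the low NG48 value for which it was chosen. NONRATT005584.2 (chr10:56339278-56341596, 2018 nt, spliced), with 173, 68, 5 and 60 reads in HG48, NG48, HG24 and NG24, lay 185726 bases from NONRATT005600.2, and both were low in HG24; the window of 250 kb for this last pair was chosen after the values were seen.

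In properties that the rule did not use, single blocks and transcripts alone at their locus were somewhat fewer among the 58 than in the set they came from, a difference that was not tested. 26 of the 58 (44.8%) were single blocks, against 55.4% of the 2872 well-covered transcripts, and 35 (60.3%) were alone at their locus, against 68.7%. The percentage of well-covered transcripts that were among the 58 was 2.94% for spliced transcripts that share a locus (21 of 714), 1.94% for spliced ones alone at theirs (11 of 568), 1.71% for single blocks alone (24 of 1405) and 1.08% for single blocks that share (2 of 185). The overall percentage was 2.02%. Their median length was 1619 nt against 1325 nt. Their median mean count, a value that the rule did use and that a low library lowers, was 116 against 125. 56 carried NONCODE identifiers and 2 were assembled transcripts, and none of the 44 well-covered Ensembl transcripts was among them. They lay on 18 chromosomes, with 10 on chromosome 1 (3.25% of the well-covered transcripts there) and 8 on chromosome 10 (3.45%). Chromosomes 4 and 6 had 5 each (2.89% and 3.79%). The highest percentages were those of chromosome 6 and of chromosome 19, with 3 (3.70%).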

How the data were processed

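Strand-specific total RNA libraries of 4 groups were sequenced on an Illumina instrument, per the labels' protocols. Per the submitters' processing notes, TopHat2 2.1.0 and Cufflinks were used, with no role given, on the genome build rn6. For the counting tool and its use of strand, the sources used here give nothing. The deposited counts are whole reads per lncRNA transcript, per the file headers, and a table lists only transcripts with at least 1 read, so an unlisted transcript was taken as 0. The deposited FPKM values scale these counts by transcript length and by a library total, which was recovered from count, length and FPKM.

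Members were found on the deposited FPKM, and folds were made from counts over the recovered totals. A locus is a chain of overlapping spans, a partner a listed transcript that overlaps by at least 1 base, and a neighbour a transcript within 50 kb without overlap. Strand was not used for any of these, so partners and locus sums may mix transcripts of opposite strands. With 1 library per group no test was run, and edgeR 4.0.16 (TMM) and DESeq2 1.42.0 (size factors) served only as other scalings. The rule that finds a low library was tested on simulated counts, and the ratio and interval function on a fixed pair of counts. Python 3.11.15 and scipy 1.17.1 were used.

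The members, lists and comparisons were chosen with earlier results of these data known. For each low library the text names the 5 members of highest mean count, the 4 with the lowest level against the highest, those not listed, the 3 nearest to the limit on each side and up to 5 with a well-covered partner, and the examples given with the rule. Further members were named after their values were seen, to account for the set.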

Additional observations from a re-analysis of the deposited data

Results flagged for a closer look

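For 10 of the 58 transcripts (17.2%) high glucose was at least 2-fold above normal glucose at one time and at least 2-fold below it at the other, which held for 54 of the 2872 well-covered transcripts (1.88%). The values chose these transcripts and each ratio rests on 2 libraries, so the difference between times was not tested. The difference is given as the log2 ratio of HG48 over NG48 minus the log2 ratio of HG24 over NG24. It was 6.61 for NONRATT028952.2, whose log2 ratios were 2.85 at 48 h and -3.76 at 24 h, and 5.39 for NONRATT005584.2. Both were low in HG24. Among those low in NG48 it was 3.07 for NONRATT025796.2, 5.18 for MSTRG.3899.3 and 6.39 for NONRATT025362.2, the last against the floor of 3 counts. In the transcripts low in NG24 it was -6.03 for NONRATT018275.2, -7.30 for NONRATT020646.2, -5.45 for NONRATT027637.2, -6.74 for NONRATT026138.2 and, against the floor, -5.88 for NONRATT024764.2. The sign is fixed by which library is low. With ratios required to be opposite, a low HG24 or NG48 makes the difference positive and a low NG24 makes it negative. Nothing is read from the sign. NONRATT020646.2 had log2 ratios of -2.70 at 48 h and 4.6 at 24 h.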

How the results depend on the processing

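CPM uses the same library totals as FPKM, so ratios within a transcript do not change and all 58 had to be found again. DESeq2 size factors found all 58 and 4 more, and TMM factors found 57 of the 58 and 3 more. Other limits kept fewer of the 58, namely 39 under 25% of the highest (62 transcripts found), 34 under 6.25% and 39 by the widest gap. All 174 member values under CPM, TMM factors and size factors lay inside their counting intervals, which was certain for those under CPM. The counts of transcripts low in HG24, NG48 and NG24 were 40, 38 and 33 with a mean count of 20 or more and 387, 330 and 616 with no filter, against 21, 22 and 15. With a mean count of 100 or more, 14 were low in NG48. In NG24, 8 were low under 6.25% of the highest and 7 by the widest gap. With FPKM summed over loci, 42 of 58 remained, and 7 of the 23 at shared loci. Sums of counts gave 8 of the 23, the added one being NONRATT020646.2. With no filter on partners, 8 members had a lower partner, against 4. With partners of mean count 50 or more, 3 members had a higher, 8 a level and 1 a lower partner, against 8, 13 and 4. The percent of transcripts 8-fold apart on log2(FPKM + 1) was 1.462 (HG24 over NG24), 1.845 (HG48 over NG48), 1.636 (NG48 over NG24) and 2.159 (HG48 over HG24). In the same order it was 2.507, 3.343, 3.064 and 3.691 with a pseudocount of 0.1, and 0.3346, 0.3847, 0.3457 and 0.4238 with no filter. A smaller pseudocount shrinks the ratios less, so with it the percent could not fall. The cause of the other shifts was not tested. No paired analysis was possible because each group has 1 library and the labels carry no replicate numbers. Low libraries held 10 reads or fewer for 33 of the 58, which limits the size of their folds.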
